A study of Mus musculus with 10 samples.

Results

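Claudins are the membrane proteins that form the strands of the tight junction, and the 10 members Cldn1, Cldn2, Cldn3, Cldn4, Cldn6, Cldn7, Cldn8, Cldn15, Cldn18 and Cldn23 were followed here in mouse intestinal organoids and in colonic crypts. The members were taken by name, and they are 10 of the 23810 genes in the table of annotated cells, which holds 14 other claudin genes. In an epithelial sheet, claudins of neighbouring cells bind each other and decide which ions and how much water pass between the cells. Some claudins, such as Cldn2 and Cldn15, form pores for cations and water, whereas others, such as Cldn1, Cldn3, Cldn4 and Cldn8, are counted as sealing members. The intestine is known for graded claudin use, with pore formers more abundant in crypts and in the leaky small intestine, and sealing members more abundant at the surface and in the colon.

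The data are single-cell RNA sequencing of 8 organoid libraries and 2 libraries of colonic crypts. ENR-organoids (n = 3 libraries, passages 2, 7 and 3) were small intestinal crypt cultures whose added factors were EGF, Noggin and R-Spondin 1. For Hyper-organoids (n = 3, passages 1, 6 and 3) the medium had 8 components, namely EGF, FGF2, conditioned medium with R-Spondin 1, LDN193189, GSK-3 Inhibitor XV, Pexmetinib, the histone deacetylase inhibitor VPA and the EZH2 inhibitor EPZ6438. The -VE-organoids (n = 2, passages 1 and 6) had that medium with VPA and EPZ6438 left out. The Hyper medium therefore differs from the ENR medium in several agents at once, and from the -VE medium in this pair of agents. Hyper-organoids 1 and 2 and both -VE libraries were made from ENR-organoids, and ENR-organoids 3 and Hyper-organoids 3 came from primary crypts. Colonic crypts were taken from normal mice and from mice given dextran sulfate sodium (DSS), which injures the colonic epithelium, with 1 library each. The labels give no strain, age, DSS dose or number of animals, and they do not say that libraries came from separate animals, so p-values here measure only the spread between libraries.

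Values are unique molecular identifiers (UMIs), each standing for a captured RNA molecule read at its 3′ end, so levels of different genes were compared without scaling by length. The annotated cells numbered 1983 to 4293 per organoid library, 1132 in the normal colon and 1933 in the DSS colon, and their summed UMIs were 89124015 to 170019527 per organoid library, 19906845 and 32397122. Levels are given as counts per 1000000 UMIs of the same cells (CPM). No 2 libraries shared more than 5 cell barcodes. The summed level of 7 leukocyte markers was 0.471 to 0.862 CPM over the 8 organoid libraries, with Ptprc at 0 in 7 of them. Of 5 stromal markers, Vim alone reached 1 CPM in organoids, at 5.86 to 15.7 CPM in ENR-, 5.23 and 9.75 in -VE- and 19.1 to 89.8 in Hyper-organoids, and the part of such cells in the results below was not tested. In the colon the leukocyte markers summed to 208 CPM in the normal and 1246 CPM in the DSS library, and the stromal markers to 53.5 and 107 CPM.

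Cldn7, a broadly expressed claudin of the lateral membrane, was the most abundant member in every library. It stood at 871, 915 and 916 CPM in ENR-organoids 1, 2 and 3, at 903 and 903 CPM in -VE-organoids, and at 764, 849 and 800 CPM in Hyper-organoids. The Hyper-organoids were the lowest and did not overlap either other medium. Of the 16037 genes tested below, 61% did not overlap between Hyper- and ENR-organoids. The share was 64.5% between Hyper- and -VE- and 44% between -VE- and ENR-organoids. A lack of overlap over all cells, here and below, is thus common among genes. In organoids Cldn3 followed, at 191 to 419 CPM, and Cldn2 and Cldn15 lay at 95.8 to 196 and 77.5 to 158 CPM. Cldn4 and Cldn23 lay between about 4 and 81 CPM, and Cldn8, Cldn6, Cldn1 and Cldn18 had under 5 CPM in each organoid library. Summed over the 10 members, claudin RNA was 1516, 1578 and 1614 CPM in ENR-organoids, 1471 and 1494 CPM in -VE-organoids and 1270, 1425 and 1429 CPM in Hyper-organoids. In the colonic libraries the same sum was 3127 and 3106 CPM, above every organoid library.

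**Figure D1:**
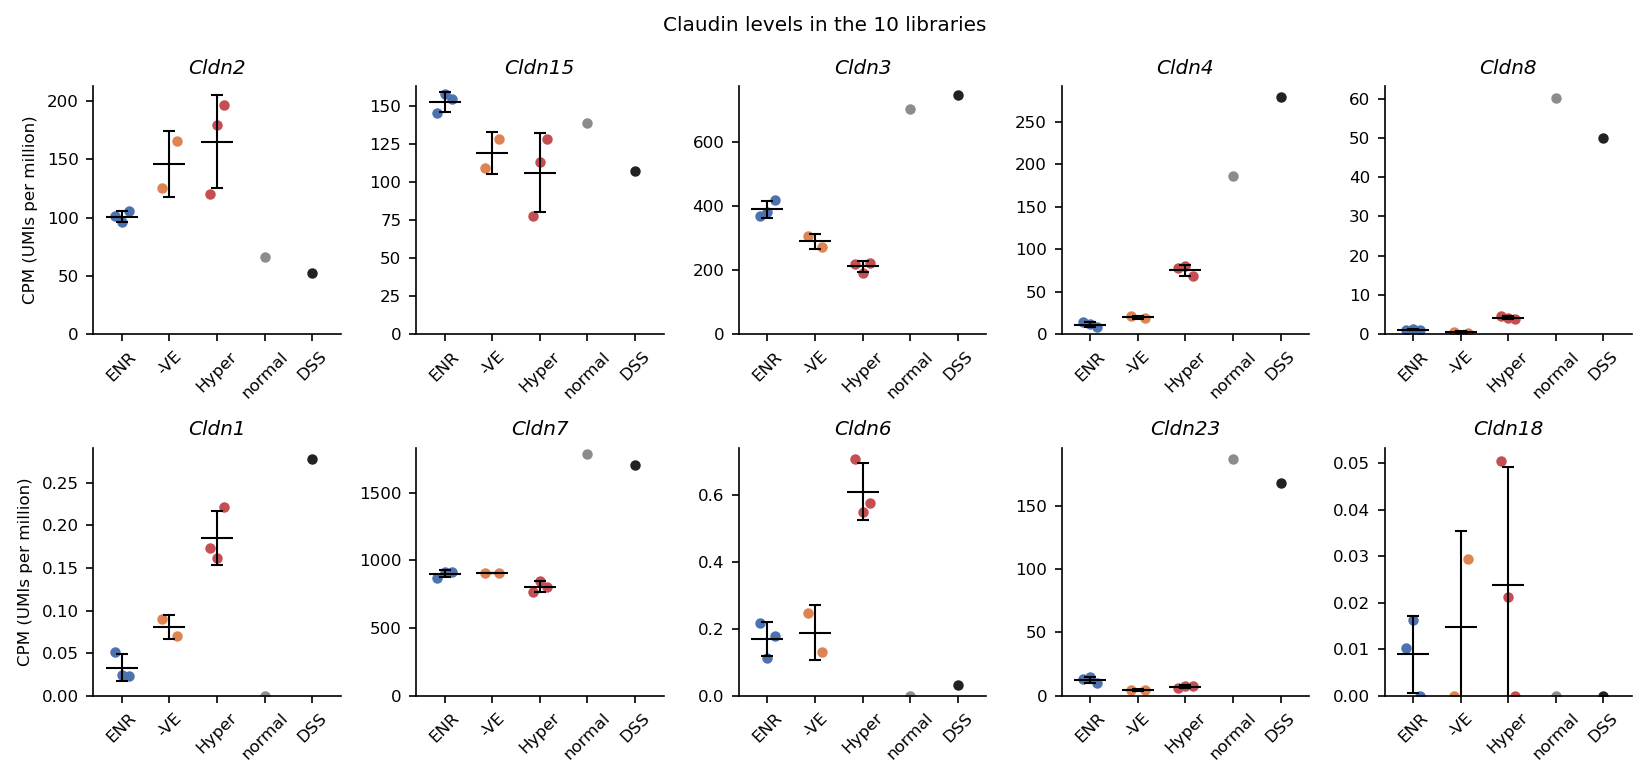
Level of each claudin in each of the 10 libraries, in CPM on linear axes from 0 with a range of their own for each gene, with 1 point per library and, for the organoid media, a line at the mean with bars for the SD. Cldn4 sits at 8.04 to 13.9 CPM in ENR-organoids and at 67.9 to 80.6 CPM in Hyper-organoids, while Cldn3 is lower in Hyper-organoids than in ENR-organoids and Cldn7 stays near 800 to 900 CPM in organoids.

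Which claudins differ between Hyper- and ENR-organoids was asked with edgeR over all 16037 genes that passed the filter on low counts, with a gene called where its adjusted p was below 0.05 and its change was at least 2-fold. Of the 10 members 9 passed that filter, and 5 of them were called, 4 higher and 1 lower in Hyper-organoids, beside 22.9% of all genes tested (18.2% higher and 4.75% lower). The median log2 fold change was 0.58 over the 9 members and -0.01 over all genes. Cldn18 was not tested. Summed counts cannot separate fewer cells of a type from less RNA per cell, so the same members are given by cell class further on.

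Among the sealing members, Cldn4, a sealing claudin and a receptor of the Clostridium perfringens enterotoxin, gave the clearest difference. Its level was 13.9, 11.6 and 8.04 CPM in ENR-organoids 1, 2 and 3, 21.1 and 18.4 CPM in -VE-organoids, and 77.4, 80.6 and 67.9 CPM in Hyper-organoids. Every Hyper library lay above every -VE library, and every -VE library above every ENR library. Cldn4 rose in Hyper-organoids by a log2 fold change of 2.63 ± 0.17 (SE, adjusted p = 9.41e-06 against ENR-organoids). The adjusted p over 18 alternative settings ranged from 1.13e-59 to 0.00996, and Cldn4 was called in each of the 18. Its log2 fold change ranged from 1.11 to 2.79 over these settings, and was 1.89 with every deposited barcode. The 1.11 came from equal class weights (limma on log2 of CPM plus 1). That setting averages stem, transit amplifying, goblet and enteroendocrine cells and leaves out the other classes.

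Cldn3, a sealing claudin of enterocytes and colonocytes, went the other way. It stood at 370, 381 and 419 CPM in ENR-organoids, 307 and 273 CPM in -VE-organoids, and 219, 191 and 224 CPM in Hyper-organoids. The 3 media did not overlap, and the order was the reverse of that of Cldn4. Cldn3 fell in Hyper-organoids by 1.01 on the log2 scale (SE 0.09, adjusted p = 5.29e-05), which is just past the 2-fold threshold. It kept that call in 11 of 18 alternative settings, and in the other 7 its log2 fold change lay between -0.996 and -0.71, among them -0.94 without Hyper-organoids 2 and -0.92 without ENR-organoids 3. An antisense gene, Wbscr25, overlaps Cldn3 in the annotation, and the sources used here do not state how such reads were assigned.

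Cldn4 and Cldn3 are neighbours on chromosome 5 in the build of the files (mm10, gene models of GENCODE M21). Cldn4 lies at chr5:134945119-134946934 on the minus strand and Cldn3 at chr5:134986214-134987472 on the plus strand, with 39279 bases between them. The 250 bases before each start site in RefSeq (GRCm38.p6) are printed because these neighbours differed in opposite directions. The Cldn4 window is chr5:134946935-134947184, minus strand, and the Cldn3 window is chr5:134985964-134986213, plus strand. Capitals mark the motifs that were searched on both strands and found, the AP-1 letters TGANTCA and the GC box GGGCGG or its complement CCGCCC.
Cldn4: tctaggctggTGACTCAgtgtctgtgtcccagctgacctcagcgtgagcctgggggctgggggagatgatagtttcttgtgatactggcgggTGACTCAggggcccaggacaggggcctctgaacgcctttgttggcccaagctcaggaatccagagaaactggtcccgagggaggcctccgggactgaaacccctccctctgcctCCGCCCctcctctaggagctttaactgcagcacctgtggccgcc
Cldn3: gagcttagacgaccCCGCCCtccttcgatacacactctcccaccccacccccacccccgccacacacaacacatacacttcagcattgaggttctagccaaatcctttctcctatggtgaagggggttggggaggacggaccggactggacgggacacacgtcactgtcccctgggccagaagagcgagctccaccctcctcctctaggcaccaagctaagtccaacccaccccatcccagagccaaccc
The Cldn4 window held 2 AP-1 matches, starting 240 and 158 bases before the start site, and 1 GC box at 44 bases. The Cldn3 window held 1 GC box at 236 bases and none of the AP-1 letters. Of the other members with a window, Cldn15 held the AP-1 letters at 214 bases, whereas Cldn1 and Cldn6, which are described as higher in Hyper-organoids further on, held none. Of 32851 mouse promoter windows of the same length, 6.75% held the AP-1 letters, 0.338% held them 2 or more times, and 32.7% held a GC box. The TEAD letters GGAATG or CATTCC, found in 12.6% of all windows, and TATAAA, found in 12.4%, were in neither window. Such matches describe the letters only and no binding was measured.

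Cldn8, a sealing claudin of distal colon and kidney tubule, had 1.03, 1.24 and 1.04 CPM in ENR-organoids, 0.640 and 0.400 CPM in -VE-organoids, and 4.55, 4.19 and 3.81 CPM in Hyper-organoids. The Hyper libraries lay well above the others, and the -VE libraries were the lowest of the 3 media. Cldn8 rose in Hyper- against ENR-organoids by a log2 fold change of 1.79 ± 0.20 (SE, adjusted p = 0.000127). Cldn1, a barrier claudin best known from the epidermis, gave only 5, 3 and 2 UMIs in whole ENR libraries, 11 and 12 UMIs in -VE libraries, and 24, 23 and 20 UMIs in Hyper libraries. It was called higher in Hyper-organoids (log2 fold change 2.34 ± 0.40, SE, adjusted p = 0.00141), on counts of at most 24 UMIs per library. Cldn1 passed the filter on low counts only with the Hyper libraries included, so this call follows in part from that filter. With equal class weights Cldn1 missed the 2-fold threshold at 0.988, and Cldn8 was called at 1.33. The 1 CPM added before the log in that setting shrinks values of genes near or under 1 CPM. Cldn1, Cldn8 and Cldn6 are such genes, and the part of this was not tested.

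Cldn7 was below the 2-fold threshold, with a log2 fold change of -0.29 ± 0.06 (SE, adjusted p = 0.00341) in Hyper- against ENR-organoids. Among the pore formers, Cldn2, the cation and water channel of leaky epithelia, stood at 102, 95.8 and 105 CPM in ENR-organoids, 126 and 166 CPM in -VE-organoids and 120, 179 and 196 CPM in Hyper-organoids. Each Hyper and each -VE library was above each ENR library, and these 2 media overlapped with each other. Its log2 fold change of 0.58 ± 0.18 (SE, adjusted p = 0.0239) was not past 2-fold. Cldn15, the sodium pore of the small intestine that supplies the ion for nutrient uptake, was at 145, 158 and 155 CPM in ENR-, 109 and 129 CPM in -VE- and 77.5, 113 and 128 CPM in Hyper-organoids. Its ENR libraries were the highest, and its log2 fold change was -0.65 ± 0.17 (SE, adjusted p = 0.0112).

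Of the remaining members, Cldn6, which is typical of embryonic epithelia, had 21, 14 and 16 UMIs in ENR-, 30 and 22 UMIs in -VE- and 98, 78 and 52 UMIs in Hyper-organoids, or at most 0.708 CPM. It was called higher in Hyper-organoids with a log2 fold change of 1.73 ± 0.34 (SE, adjusted p = 0.00273), or 1.06 with equal class weights. Cldn23, a claudin of differentiated gut surface cells, was at 13.4, 14.4 and 9.60 CPM in ENR-, 4.76 and 4.13 CPM in -VE- and 5.78, 7.48 and 7.75 CPM in Hyper-organoids. The ENR libraries lay above all others. Its log2 fold change of -0.96 ± 0.17 (SE, adjusted p = 0.00147) missed the 2-fold threshold narrowly. Over 18 alternative settings it ranged from -1.58 to 0.239, passed that threshold in 5 and changed sign with equal class weights. Cldn18, a claudin of stomach and lung, gave 1, 2 and 0 UMIs in ENR-, 0 and 5 UMIs in -VE- and 7, 3 and 0 UMIs in Hyper-organoids, and the annotation places the gene Gm16004 over it on the other strand.

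Against -VE-organoids, whose medium lacks VPA and EPZ6438, 3 of the 9 members tested were called, beside 18.6% of all genes tested. All 3 were higher in Hyper-organoids, beside 16.1% of genes called higher. Hyper-organoids 3, from primary crypts, had no -VE library of its series, so origin also differs between these groups. Without that library 3 members were called as well. Cldn4 rose by a log2 fold change of 1.80 ± 0.19 (SE, adjusted p = 0.000232), Cldn8 by 2.88 ± 0.24 (adjusted p = 9.16e-05) and Cldn6 by 1.58 ± 0.38 (adjusted p = 0.00967). The Cldn6 call was lost without -VE-organoids 2 (adjusted p = 0.0806). With equal class weights the log2 fold changes were 1.02 for Cldn4 and 1.51 for Cldn8, both called. Cldn6 had 0.56 and was not called (adjusted p = 0.142), in a setting whose added 1 CPM shrinks its value. Cldn1 differed by 1.06 ± 0.39 at an adjusted p of 0.0514 and was called in 4 of 17 alternative settings. Cldn3 was lower in every Hyper library than in every -VE library, by a log2 fold change of -0.59 ± 0.10 (adjusted p = 0.00226), short of 2-fold. Cldn2 and Cldn15 gave 0.05 (adjusted p = 0.871) and -0.30 (adjusted p = 0.222). The median was 0.52 over the 9 members and 0.01 over all genes.

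Between -VE- and ENR-organoids, whose media both hold EGF and R-Spondin 1 and differ in other agents, 2 of the 9 members were called, both lower in -VE-organoids, beside 2.55% of all genes tested (1.20% lower). Cldn23 fell by 1.48 on the log2 scale (SE 0.19, adjusted p = 0.00643) and Cldn8 fell by 1.09 (SE 0.23, adjusted p = 0.0294). The Cldn23 call was lost without -VE-organoids 2 (adjusted p = 0.0663), and the Cldn8 call was lost when any of the 3 ENR libraries or -VE-organoids 2 was left out. With equal class weights, which leave out enterocytes, enterocyte progenitors and Paneth cells, neither was called, at -0.43 for Cldn23 and -0.18 for Cldn8. Cldn4 differed by 0.83 ± 0.18 (SE, adjusted p = 0.0304) without reaching 2-fold. The 3 comparisons share libraries, so their values are given side by side and were not compared with each other.

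**Figure D2:**
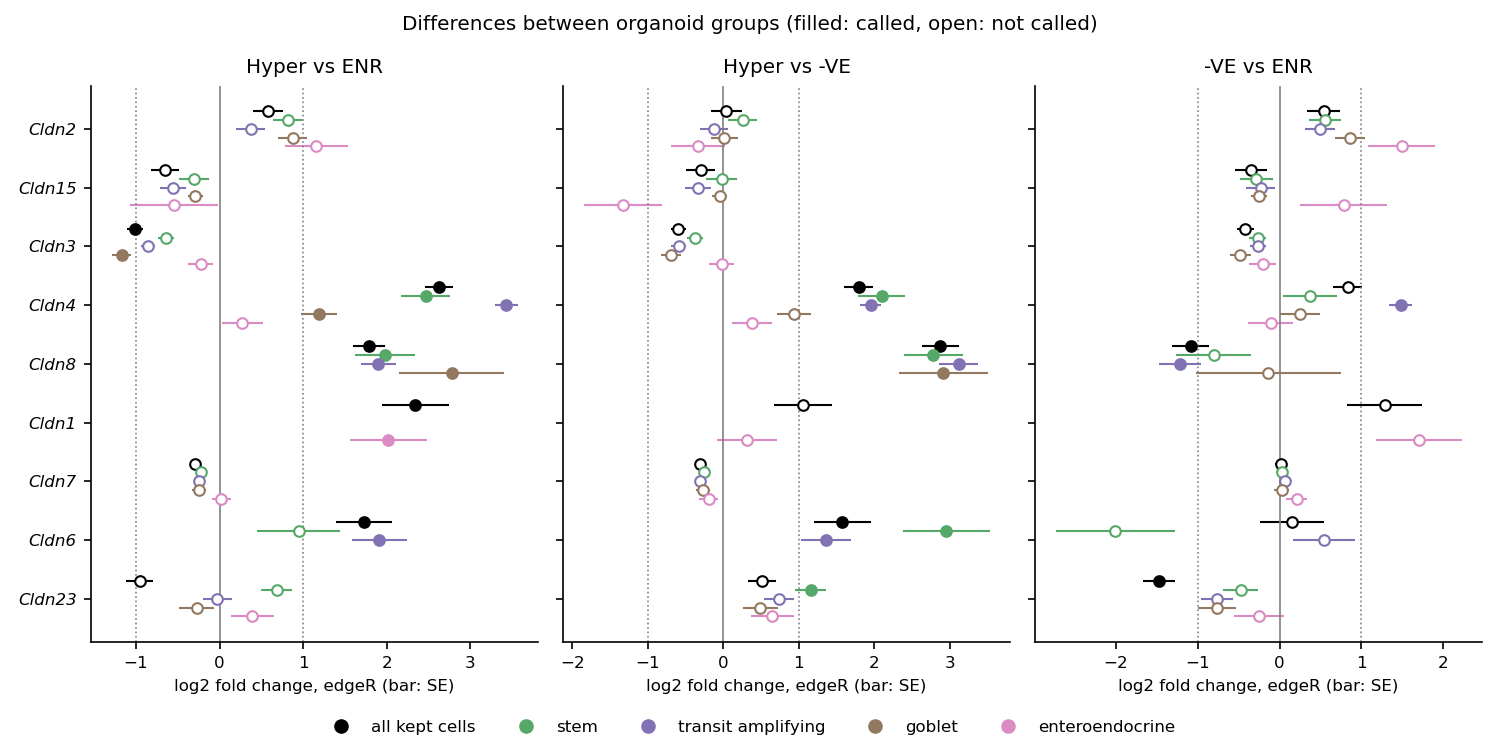
Log2 fold change of each tested claudin from edgeR (points) with its standard error (bars) in the 3 comparisons of organoid media, over all annotated cells (black) and within 4 classes (colours), with dotted lines at the 2-fold threshold and filled points for calls. Over all cells Cldn4 lies at 2.63 for Hyper- against ENR-organoids and at 1.80 against -VE-organoids, and Cldn3 at -1.01 and -0.59.

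The make-up of claudin RNA also differed between media. As a share of the UMIs of the 10 members, Cldn7 took 57.4% ± 0.61 in ENR- (SD, n = 3), 60.9% ± 0.63 in -VE- (n = 2) and 58.6% ± 2.27 in Hyper-organoids (n = 3). Cldn3 took 24.8%, 19.6% and 15.5% in the same order, and Cldn2 took 6.43%, 9.82% and 11.9%. Cldn4 went from 0.717% ± 0.21 in ENR- through 1.33% in -VE- to 5.50% ± 0.69 in Hyper-organoids. In the colon, the Cldn4 share was 5.96% in normal crypts and 8.97% after DSS, that of Cldn23 5.99% and 5.41%, and that of Cldn8 1.93% and 1.61%. Tissue, culture and library cannot be told apart between organoids and colon.

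**Figure D3:**
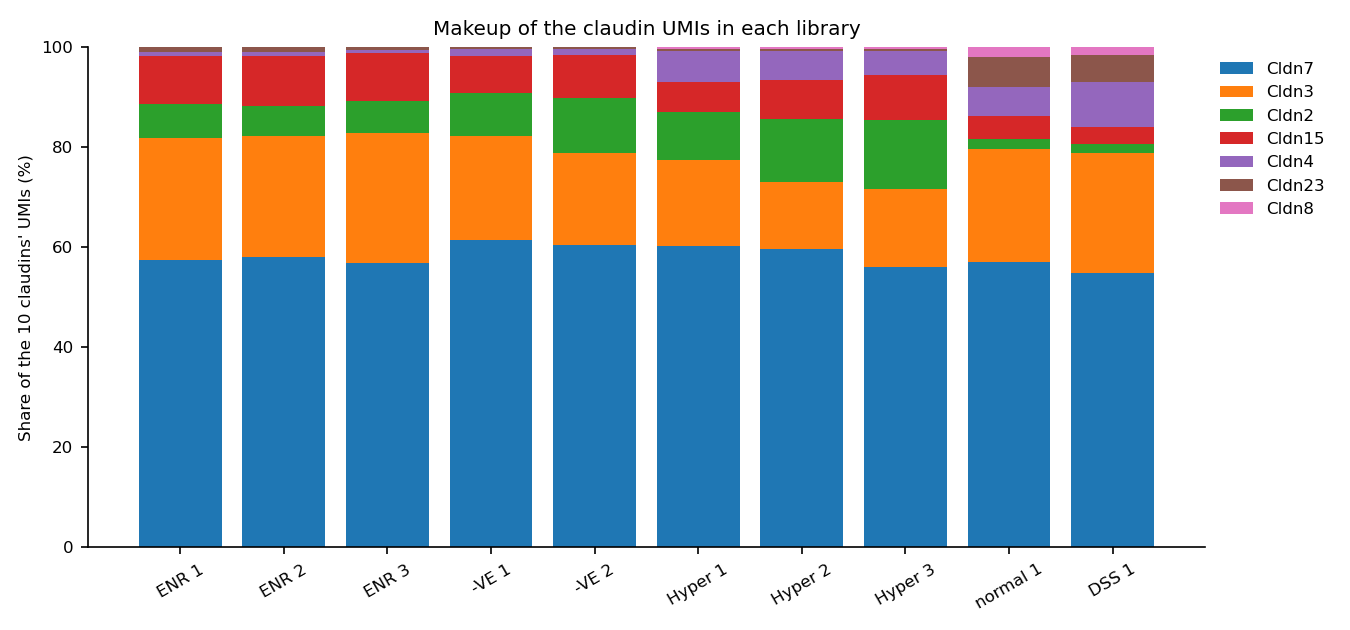
Share of the 10 claudins' UMIs taken by each member, in percent, as stacked bars with 1 bar per library and without Cldn1, Cldn6 and Cldn18, which are too rare to see. Cldn7 takes the largest share in each bar, Cldn3 shrinks from 24.8% in ENR- to 15.5% in Hyper-organoids on average, and Cldn4 grows from 0.717% to 5.50%.

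The annotation of the authors puts organoid cells in classes, and levels are given only for classes with at least 20 cells in a library. The shares of these classes differed between media. Enterocytes were 9.78% to 13.1% of cells in ENR-, 5.68% and 6.23% in -VE- and 0.249% to 1.65% in Hyper-organoids, and enterocyte progenitors were 22.2% to 34.5%, 4.29% and 4.39%, and at most 0.107%. Stem cells were 9.75% to 14.7% of cells in ENR- and 40.0% to 44.1% in Hyper-organoids. The stem markers Lgr5, Ascl2, Olfm4 and Cd44 summed to 3157 to 4560 CPM within the ENR stem class and to 268 to 923 CPM within the Hyper stem class. That gap came from Olfm4, while Lgr5 was at 88.3 to 111 CPM in the ENR and 122 to 164 CPM in the Hyper stem class. Classes were made from the same cells and genes, so the class levels below are a description with no test.

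In ENR-organoids Cldn3 and Cldn15 were highest in enterocytes and next in goblet cells. Cldn3 was at 677 ± 26.4 CPM in enterocytes (SD, n = 3), 559 ± 61.2 in goblet cells, 409 ± 19.7 in enterocyte progenitors, 363 ± 10.5 in Paneth cells, 328 ± 2.98 in stem cells, 317 ± 18.3 in transit amplifying cells and 247 ± 38.4 in enteroendocrine cells. Only stem and transit amplifying cells overlapped as neighbours in that order. Cldn15 ran from 249.9 ± 11.1 CPM in enterocytes to 133 ± 4.89 in stem cells, and was 17.4 ± 13.7 CPM in enteroendocrine cells, where the 3 libraries had 7.77, 33.0 and 11.3 CPM. Enteroendocrine cells thus had the least Cldn15 of the 7 classes in each ENR library.

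Cldn2 was instead lower in enterocytes and goblet cells than in stem cells of ENR-organoids. It was at 114 ± 4.48 CPM in enterocyte progenitors, 109.8 ± 3.30 in transit amplifying and 104 ± 6.35 in stem cells, which overlapped, and lower in Paneth cells (56.6 ± 19.4), enterocytes (55.7 ± 8.81), goblet cells (35.4 ± 5.22) and enteroendocrine cells (19.5 ± 9.66). In -VE-organoids enterocyte Cldn2 was at 118 and 174 CPM and overlapped stem cells, and in the 2 Hyper libraries with at least 20 enterocytes it was at 329 and 277 CPM, above every class of at least 20 cells in the 3 Hyper libraries. Cldn7 was the most even member, between 646 ± 64.4 and 977 ± 24.8 CPM in 6 classes and at 421 ± 8.76 CPM in Paneth cells. As the log2 ratio of enterocytes to stem cells in ENR-organoids, Cldn23 had 3.76 ± 0.26 (SD, n = 3), Cldn4 1.31 ± 0.56, Cldn3 1.04 ± 0.06, Cldn15 0.91 ± 0.01, Cldn8 0.13 ± 0.86, Cldn7 -0.04 ± 0.02 and Cldn2 -0.91 ± 0.20.

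In ENR-organoids Cldn4 had its higher means in the secretory classes and in enterocytes. It was at 121 ± 54.5 CPM in enteroendocrine cells, 67.1 ± 25.7 in Paneth cells, 32.7 ± 9.86 in enterocytes and 28.5 ± 13.5 in goblet cells, against 14.4 ± 8.40 in stem, 4.84 ± 0.993 in transit amplifying and 4.51 ± 1.50 CPM in enterocyte progenitor cells. The enteroendocrine and Paneth libraries overlapped, as did enterocytes with goblet cells and goblet with stem cells. In Hyper-organoids the order was different, with enterocytes at 238 and 262 CPM in the 2 libraries with at least 20 such cells, enteroendocrine cells at 138 ± 12.0, stem cells at 88.9 ± 13.2, goblet cells at 68.9 ± 2.46 and transit amplifying cells at 56.5 ± 6.46 CPM. The 26 revival stem cells of Hyper-organoids 3, the only library with 20 of them, had 250.2 CPM of Cldn4.

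**Figure D4:**
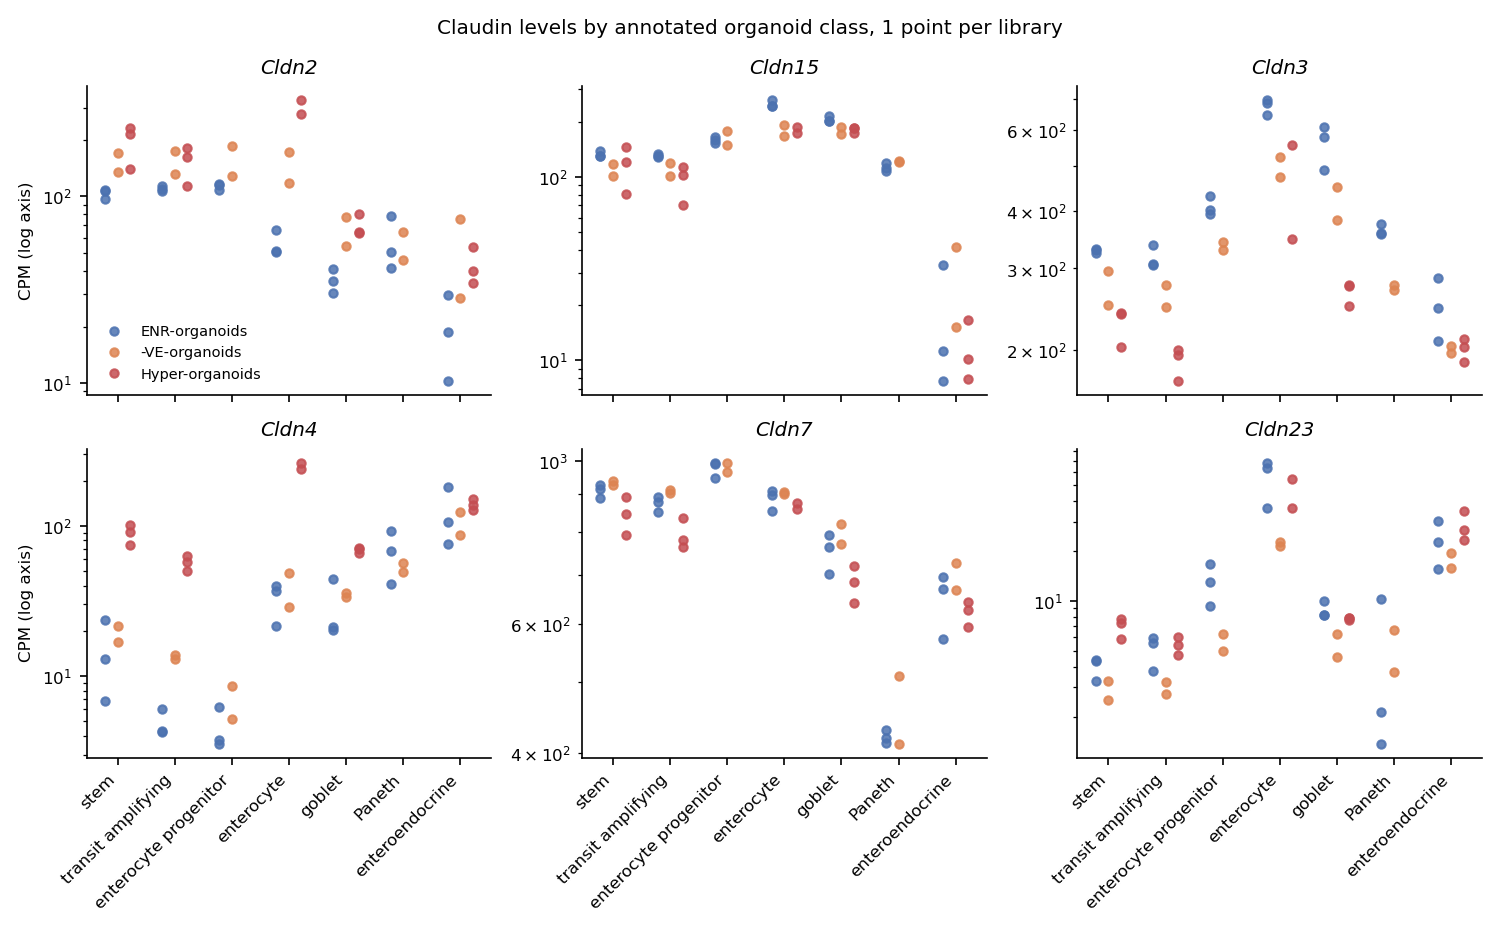
Level of the 6 more abundant claudins in each annotated cell class with at least 20 cells, in CPM on a log axis, with 1 point per organoid library coloured by medium. Stem and transit amplifying cells of Hyper-organoids carry more Cldn4 than those of ENR-organoids, whereas the enteroendocrine libraries of the 3 media overlap.

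Cldn23 in ENR-organoids and Cldn1 were concentrated in a class. Enterocytes gave 36.8%, 51.1% and 38.8% of the Cldn23 UMIs of ENR-organoids, where they held 7.80%, 10.9% and 10.3% of all UMIs. In Hyper-organoids, with only 7 enterocytes in library 1, they gave 1.12%, 8.37% and 7.57% of the Cldn23 UMIs. In Hyper-organoids stem cells gave 36.3%, 35.9% and 40.4% of them and transit amplifying cells 46.6%, 44.7% and 34.7%. Within the enterocyte class Cldn23 was at 63.2, 67.9 and 36.3 CPM in ENR-, 22.7 and 21.5 CPM in -VE- and 36.5 and 54.4 CPM in Hyper-organoids, so ENR and Hyper libraries overlapped there. With equal class weights the log2 fold change of Cldn23 in Hyper- against ENR-organoids was 0.24 in place of -0.96. That setting leaves out enterocytes, enterocyte progenitors and Paneth cells. Cldn1 was concentrated in enteroendocrine cells, which gave 60.0% to 100% of its UMIs per library. In that class it had 3, 2 and 2 UMIs in ENR-, 11 and 11 UMIs in -VE- and 19, 14 and 17 UMIs in Hyper-organoids.

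Whether the differences hold inside a class was tested in the 4 classes with at least 20 cells in all 8 organoid libraries. The annotation names a class for each organoid cell and not the cluster behind it. For Lgr5-positive stem cells and transit amplifying cells, the paper reports that Hyper- and ENR-organoids separated clearly. A class may therefore hold different cells in each medium, and the part of this in these changes was not tested. In stem cells, 2 of 8 members tested were called in Hyper- against ENR-organoids, beside 18.0% of all genes. Stem cell Cldn4 was at 13.01, 23.4 and 6.81 CPM in ENR-, 21.6 and 16.9 CPM in -VE- and 101, 90.7 and 74.8 CPM in Hyper-organoids, with no overlap of Hyper with the others. It rose by a log2 fold change of 2.47 ± 0.30 (SE, adjusted p = 0.000157), and Cldn8 rose by 1.98 ± 0.36 (adjusted p = 0.00171). Cldn2 had 0.81 ± 0.18 (adjusted p = 0.00443), under 2-fold, and was called without Hyper-organoids 1, at 1.04. Against -VE stem cells 4 of 8 members were called, beside 16.5% of genes, with Cldn4 at 2.10 ± 0.32 (adjusted p = 0.000733), Cldn8 at 2.79 ± 0.40 (adjusted p = 0.000553), Cldn6 at 2.95 ± 0.58 (adjusted p = 0.00284) and Cldn23 at 1.16 ± 0.20 (adjusted p = 0.00161). Without -VE-organoids 2 the Cldn23 value was 0.960, which is under 2-fold. The Cldn8 value was 2.15 without -VE-organoids 2 and 3.75 without -VE-organoids 1, called in both. The Cldn6 values rest on under 1 CPM in each stem library, with 4 UMIs over the -VE and 73 over the Hyper libraries. Stem Cldn6 passed the filter through the Hyper libraries, so its call follows in part from that filter. Between -VE and ENR stem cells 3 members, Cldn2, Cldn3 and Cldn6, had an unadjusted p below 0.05 in edgeR, beside 2465 of 13920 genes. Called there were 0 of 8 members, beside 0.503% of genes. That share rests on 70 genes, which became 8 without ENR-organoids 1, 26 without ENR-organoids 2, 38 without ENR-organoids 3, 17 without -VE-organoids 2, 149 without Hyper-organoids 1 and 140 when the culture series, which are codes in the sample titles that media share, were blocked.

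In transit amplifying cells, Cldn4 had the largest log2 fold change of the 4 classes in Hyper- against ENR-organoids, though not against -VE-organoids. It was at 5.99, 4.32 and 4.22 CPM in ENR-, 13.9 and 13.02 CPM in -VE- and 57.2, 62.5 and 49.7 CPM in Hyper-organoids, and the 3 media did not overlap. Against ENR-organoids, 3 of 8 members were called, beside 20.9% of genes, namely Cldn4 (log2 fold change 3.43 ± 0.13, SE, adjusted p = 6.85e-07), Cldn6 (1.91 ± 0.33, adjusted p = 0.00126) and Cldn8 (1.90 ± 0.21, adjusted p = 0.000111). The same 3 members were called against -VE-organoids, beside 17.8% of genes, at 1.95 for Cldn4, 1.37 for Cldn6 and 3.12 for Cldn8. Transit amplifying Cldn6 had 18 UMIs over the ENR, 32 over the -VE and 108 over the Hyper libraries. It passed the filter through the Hyper libraries, so its calls follow in part from that filter. Between -VE and ENR transit amplifying cells, 2 of 8 were called beside 1.03% of genes, with Cldn4 higher by 1.48 ± 0.14 (adjusted p = 0.00248) and Cldn8 lower at -1.22 ± 0.26 (adjusted p = 0.0446).

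In goblet cells 3 of 7 members were called in Hyper- against ENR-organoids, beside 13.3% of genes. Goblet Cldn3 was at 578, 490 and 608 CPM in ENR-, 451 and 382 CPM in -VE- and 276, 249 and 275 CPM in Hyper-organoids, without overlap, and fell by 1.17 on the log2 scale (SE 0.12, adjusted p = 3.06e-05). In the other 3 classes Cldn3 was not called, with log2 fold changes of -0.64 ± 0.09 in stem (adjusted p = 0.000410), -0.86 ± 0.09 in transit amplifying (adjusted p = 6.56e-05) and -0.23 ± 0.15 in enteroendocrine cells (adjusted p = 0.345). Cldn4 rose by 1.19 ± 0.22 (adjusted p = 0.00172) and Cldn8 by 2.78 ± 0.63 (adjusted p = 0.00582). Against -VE goblet cells 1 of 7 was called, beside 9.87% of genes, and this was Cldn8 (2.92 ± 0.59, adjusted p = 0.00472). Goblet Cldn8 had 4 UMIs over the ENR, 6 over the -VE and 44 over the Hyper libraries. It passed the filter through the Hyper libraries, so its calls follow in part from that filter. Between -VE and ENR goblet cells 0 of 7 were called by edgeR, beside 1.14% of genes. There 4 members, Cldn2, Cldn3, Cldn15 and Cldn23, had an unadjusted p below 0.05, beside 2125 of 11714 genes. Cldn2 had a log2 fold change of 0.86 ± 0.19 there (adjusted p = 0.0389) and was called at 1.001 (adjusted p = 0.00721) when the culture series were blocked.

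In enteroendocrine cells, 1 of 7 members was called in Hyper- against ENR-organoids, beside 7.40% of genes, and this was Cldn1 (log2 fold change 2.02 ± 0.46, SE, adjusted p = 0.0139). Enteroendocrine Cldn1 had 7 UMIs over the ENR, 22 over the -VE and 50 over the Hyper libraries. It passed the filter through the Hyper libraries, so its call follows in part from that filter. Enteroendocrine Cldn4 was at 182, 75.9 and 106 CPM in ENR-, 123 and 86.2 CPM in -VE- and 137, 151 and 127 CPM in Hyper-organoids, which overlapped, with a log2 fold change of 0.27 ± 0.24 (adjusted p = 0.516). When the culture series were blocked, Cldn2 was called as well, at 1.24 (adjusted p = 0.00857), against 1.16 ± 0.38 (adjusted p = 0.0628) without it. Against -VE-organoids and between -VE- and ENR-organoids 0 of 7 members were called in enteroendocrine cells by edgeR, with or without that block, beside 4.01% and 0.190% of genes. In each comparison 2 members had an unadjusted p below 0.05, beside 2189 and 1413 of 11050 genes. The change of Cldn4 itself differed between classes, as tested by edgeR with the library as a block, and was smaller in enteroendocrine than in stem cells by 2.28 ± 0.37 on the log2 scale (adjusted p = 0.000672, beside 10.9% of genes below 0.05).

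The share of cells with at least 1 UMI was compared after each cell was thinned to 10000 UMIs, which left out 63 to 280 cells per library. Cldn4 was found in 9.59%, 6.30% and 5.47% of ENR-organoid cells, in 13.7% and 12.98% of -VE cells and in 34.8%, 41.0% and 37.9% of Hyper cells. Without thinning the shares were 18.5%, 16.4% and 11.8%, then 34.2% and 30.1%, and 68.8%, 72.7% and 69.6%. This share rises with the mean level by itself and is no separate difference. Among ENR enterocyte progenitors, the class with the lowest mean of Cldn4, the thinned share in ENR-organoids 1 was 5.02% (exact 95% interval 3.24% to 7.38%, counting error only). In Hyper-organoids the class with the lowest mean, transit amplifying cells, had thinned shares of 28.7%, 37.2% and 29.1%.

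In the colon the question was how claudin RNA of crypts differs after DSS, and with 1 library per group there was no replicate check and no test. Ratios are given with exact 95% Poisson intervals, which cover counting error only. Of the 10 members 7 had at least 10 UMIs over both libraries, and 0 of these 7 differed by 2-fold, beside 13.1% of 14690 genes (9.46% higher and 3.64% lower in DSS). The more abundant sealing members differed most in Cldn4, at 186 CPM in the normal and 279 CPM in the DSS library, a ratio of 1.50 (1.44 to 1.56). Cldn3 was at 705 and 748 CPM, a ratio of 1.06 (1.04 to 1.08), and Cldn8 at 60.3 and 50.0 CPM, a ratio of 0.830 (0.770 to 0.895). Cldn4 was thus the member with the highest ratio of the 7.

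Over the annotated cells the pore formers were lower in the DSS library. Cldn2 had 66.5 and 52.1 CPM, a ratio of 0.784 (0.729 to 0.843), and Cldn15 had 139 and 107 CPM, a ratio of 0.773 (0.736 to 0.813). Cldn7 was at 1782 and 1702 CPM (0.955, interval 0.942 to 0.968) and Cldn23 at 187 and 168 CPM (0.898, interval 0.861 to 0.936). Cldn1 had 0 UMIs in the normal and 9 UMIs in the DSS library, which is at least 1.84-fold higher against a floor of 3 UMIs in the normal library. All 9 of these UMIs were in clusters 15, 18 and 22, of which 15 and 18 had Ptprc in over 50% of their cells. Cluster 18 also had stromal markers at 11835 CPM. Cluster 22, with 21 DSS cells, had leukocyte markers at 91846 CPM beside epithelial markers at 10240 CPM. Cldn6 had 0 and 1 UMIs and Cldn18 had 0 in both.

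Clusters in which over 50% of cells carried the leukocyte gene Ptprc held 19.3% of normal and 23.02% of DSS cells. Without them the Cldn4 ratio was 1.52. With every deposited barcode counted, annotated or not, it was 1.14. In that setting Cldn2 had a ratio of 0.954 (0.893 to 1.02) and Cldn15 of 0.983 (0.938 to 1.03), with intervals that include 1. Cldn3 was at 0.990 (0.974 to 1.01) there.

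**Figure D5:**
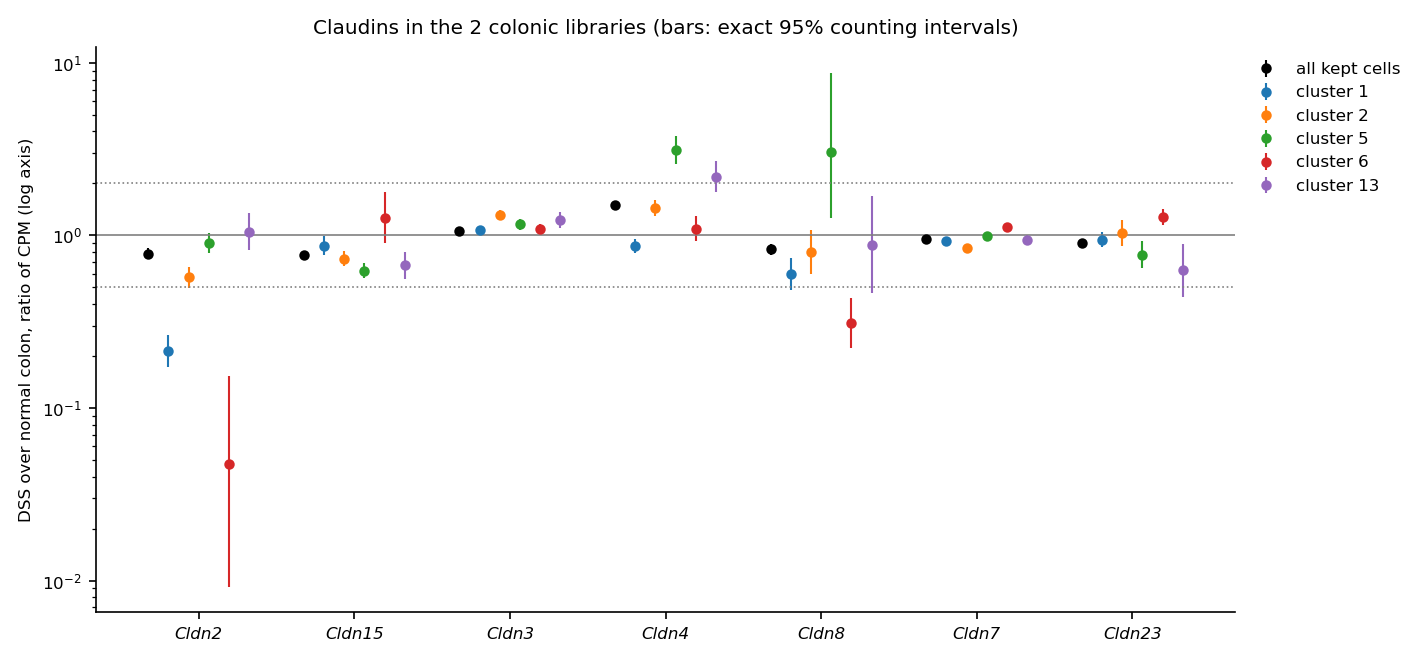
DSS over normal ratio of CPM for the 7 claudins with at least 10 UMIs, on a log axis, over all annotated colonic cells and within the 5 epithelial clusters with at least 20 cells in both libraries, with bars for the exact 95% Poisson interval. Over all cells Cldn4 lies at 1.50 and Cldn2 at 0.784, and within clusters Cldn4 reaches 3.13 in cluster 5 and Cldn2 is lowest in clusters 6 (3 UMIs in DSS) and 1 (0.215).

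Ratios were also taken within colonic clusters. Of the 25 clusters 7 had at least 20 cells in both libraries, and 5 of these were epithelial. Cluster 5 carried goblet markers at 37638 CPM, clusters 6 and 1 absorptive colonocyte markers at 29991 and 10720 CPM, cluster 13 transit amplifying markers at 2463 CPM, and cluster 2 is named stem in the annotation. Cldn4 was at 77.4 CPM (131 UMIs) in the normal and 242 CPM (836 UMIs) in the DSS cells of cluster 5, a ratio of 3.13 (2.60 to 3.79). In cluster 13 the ratio was 2.18 (1.78 to 2.69) and in cluster 2 it was 1.43 (1.29 to 1.60). In the absorptive clusters Cldn4 differed little, with ratios of 1.09 (0.923 to 1.30) in cluster 6 and 0.868 (0.788 to 0.956) in cluster 1.

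Cldn2 had its lowest ratios where Cldn4 differed least. In cluster 1 it was at 109 CPM in the normal and 23.4 CPM in the DSS cells, a ratio of 0.215 (0.173 to 0.266), and in cluster 6 it had 28 and 3 UMIs, a ratio of 0.0473 (0.00921 to 0.153). In cluster 2 the ratio was 0.572 (0.498 to 0.656), while in clusters 5 and 13 it was 0.902 (0.787 to 1.04) and 1.05 (0.820 to 1.35). Cldn8 was at 61.3 and 19.0 CPM in cluster 6, a ratio of 0.311 (0.222 to 0.432), and at 0.595 (0.481 to 0.736) in cluster 1, but had a ratio of 3.02 (1.26 to 8.76) in cluster 5 on 6 and 37 UMIs. Cldn15 was lower in DSS in cluster 5 (0.625, interval 0.566 to 0.689), in cluster 13 (0.672, interval 0.561 to 0.803), in cluster 2 (0.733, interval 0.660 to 0.814) and in cluster 1 (0.870, interval 0.765 to 0.990), but had a ratio of 1.26 (0.901 to 1.79) in cluster 6. Cldn3 had ratios from 1.07 (1.01 to 1.13) in cluster 1 to 1.31 (1.22 to 1.41) in cluster 2 over the 5 epithelial clusters. Clusters were made from both libraries together, so a cluster may hold different cells in each.

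The highest colonic Cldn4 level was in cluster 16, whose enteroendocrine markers Chga and Chgb summed to 38552 CPM and which had 16 normal and 43 DSS cells. Cldn4 was at 2060 CPM there over both libraries, against 13.97 CPM in cluster 0, a leukocyte cluster that gives the background. After thinning to 5000 UMIs per cell, which left out 357 normal and 674 DSS cells, Cldn4 was found in 38.7% of normal and 48.2% of DSS cells and Cldn8 in 23.4% and 17.95%. After the same thinning 0 of 15 normal and 3 of 30 DSS cells of cluster 0 had a Cldn4 UMI (exact 95% intervals up to 21.8% and from 2.11% to 26.5%), against 42 of 84 and 93 of 191 cells of the absorptive cluster 1. Without thinning the cluster 0 shares were 2.65% and 8.18% at median depths of 3693 and 3924 UMIs, and those of cluster 1 were 82.1% and 71.98% at 25358 and 25542 UMIs.

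Other junction genes were read from the same fits as whole lists, whatever their values. Of 14 other claudins 6 passed the filter in organoids, with a median log2 fold change of 3.12 against ENR-organoids. Of these Cldn9, Cldn10, Cldn13 and Cldn34c1 were called higher in Hyper- than in ENR- and than in -VE-organoids, beside 18.2% and 16.1% of all genes. Cldn10, Cldn13 and Cldn34c1 had at most 9 UMIs in each ENR and -VE library and passed the filter through the Hyper libraries. Their calls, and the median, follow in part from that filter. All 4 called genes were sparse, and Cldn9 had 2, 6 and 5 UMIs in ENR-, 18 and 15 UMIs in -VE- and 76, 66 and 66 UMIs in Hyper-organoids. Cldn10, which forms pores in kidney and gland ducts, had 8, 9 and 1 UMIs in ENR- and 110, 88 and 41 UMIs in Hyper-organoids. In the colon 3 of 5 other claudins tested were past 2-fold, all higher in DSS, beside 9.46% of all genes higher. They were Cldn10 at 19 and 66 UMIs, a ratio of 2.13 (1.27 to 3.77), Cldn34c1 on only 1 and 9 UMIs, a ratio of 5.53 with an interval that includes 1 (0.766 to 242), and Cldn14 at 11 and 140 UMIs, a ratio of 7.82 (4.24 to 16.0). Of the DSS Cldn14 UMIs 93 were in cluster 5, where the normal library had 1.

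Among 11 other membrane proteins of the tight junction tested, 3 were called higher in Hyper- than in ENR-organoids, beside 18.2% of all genes called higher, with a median log2 fold change of 0.17. Ildr1, a tricellular junction protein, was at 1.96, 1.54 and 1.21 CPM in ENR-, 3.26 and 6.81 CPM in -VE- and 7.46, 10.6 and 9.75 CPM in Hyper-organoids (log2 fold change 2.44 against ENR-organoids). Jam2 and Ildr2 were the others, both under 1 CPM, with at most 10 UMIs in each ENR and -VE library. These genes passed the filter on low counts through the Hyper libraries, so their calls follow in part from that filter. Of 14 scaffold and polarity proteins, which tie the strands to the cell cortex, 1 was called, Cgnl1 (1.12), with a median of -0.08. Of 10 adherens junction and desmosome genes 0 were called by edgeR, with a median of -0.25. Of these, 6 had an unadjusted p below 0.05, beside 9902 of all 16037 genes tested. Those 6 were Ctnnd1 and the desmosome genes Dsg2, Dsp, Jup, Pkp2 and Pkp3, all lower. The adherens junction genes Cdh1, Ctnna1 and Ctnnb1 had log2 fold changes of 0.07, -0.06 and 0.13. The share of all genes called in either direction was 22.9%. Of 6 genes in the list of EpCAM and the proteases and inhibitors that act on it, 2 were called, beside the same 22.9%. Of these Prss8, a membrane serine protease, was lower at a log2 fold change of -1.01. Against -VE-organoids the lists had 1 of 11, 0 of 14, 0 of 10 and 1 of 6 called, beside 18.6% of all genes, and between -VE- and ENR-organoids 1 of 11, 0 of 14, 0 of 10 and 0 of 6, beside 2.55%. In the lists without a call, 9 scaffold and 9 adherens junction or desmosome genes had an unadjusted p below 0.05 against -VE-organoids, beside 8764 of 16037 genes. Between -VE- and ENR-organoids these were 5 scaffold, 2 adherens junction or desmosome and 2 EpCAM genes, beside 3847 of 16037 genes.

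Genes whose levels followed a member most closely were sought over 50 sums of a class in a library, as Pearson's r on log2 CPM over 9765 genes. These points share libraries and classes, so r is a description. Cldn7 had the highest values, with Atp5j (0.97) and Atp5b (0.97), which encode parts of the mitochondrial ATP synthase. Cldn23 was followed most closely by Hagh (0.91), Cldn2 by Paox (0.90) and the heparan sulfate proteoglycan gene Sdc1 (0.90), and Cldn4 by Mmp15 (0.89), a membrane-type matrix metalloproteinase, and Dusp3 (0.88). Cldn3 was followed by the brush border myosin gene Myo1a (0.84) and Cldn15 by BC030870 (0.88). Between members, Cldn3 and Cldn15 gave 0.61 and Cldn3 and Cldn4 gave -0.29.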

How the data were processed

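Per the labels, single cells were captured with the 10x 3′ v3 kit. Per the labels' processing notes the authors used Cell Ranger 3.0.0 and Seurat 3.1.4 with mouse genome mm10, whereas the header of the deposited matrices names Cell Ranger 3.1.0. The deposited values are UMI counts per gene and cell, with class names from the authors for 25204 cells. Annotated cells had at least 501 genes, under the minimum of 1500 that the methods state. Counts were summed per gene and library, and per class, and every one of the 1588675 member UMIs equalled the deposited library matrices. edgeR 4.0.16 (R 4.3.3; TMM, low-count filter, quasi-likelihood test, Benjamini-Hochberg over all genes, 3 media in 1 fit) was tested on simulated data. DESeq2 1.42.0, limma 3.58.1 and other filters and scalings were alternatives. The members and lists were chosen with earlier results of these data known. All 10 members are named whatever their values, and other genes by list or by likeness to a member (the 3 highest r each, means of at least 5 CPM). A few genes that these rules would name are not reported here. Titles open with 3 codes shared by media, whose meaning the labels do not give and which are called culture series here. Deviations of same-series ENR and Hyper libraries correlated at 0.192, 0.170 and 0.436. ENR-organoids 2 and Hyper-organoids 1, of different series, also gave 0.129, and -VE-organoids 2 and ENR-organoids 2 of the same series gave 0.0617. The main fits ignore the series, which were a block only in an alternative. Doublets were not called, and leaving out the 5% of cells with most UMIs was an alternative. The -VE group has 2 libraries and each colonic group 1. Promoter windows were matched by symbol for 8 of 10 members.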

Additional observations from a re-analysis of the deposited data

Results flagged for a closer look

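The change between ENR- and Hyper-organoids was tested for a difference between the stem class and 3 other classes, with edgeR and the library as a block. Of 24 such tests of members 9 had an adjusted p below 0.05, and these 9 are listed here for that reason. Over all genes the share below 0.05 was 10.9% for enteroendocrine, 14.1% for goblet and 15.1% for transit amplifying cells. Positive values mean a larger log2 change in the named class than in stem cells.

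For Cldn4 the difference was -2.28 ± 0.37 in enteroendocrine cells (SE, adjusted p = 0.000672), -1.32 ± 0.31 in goblet cells (adjusted p = 0.00978) and 0.98 ± 0.21 in transit amplifying cells (adjusted p = 0.00338). For Cldn3 it was -0.56 ± 0.08 in goblet cells (adjusted p = 0.000234) and -0.22 ± 0.04 in transit amplifying cells (adjusted p = 0.000432). For Cldn23 it was -0.96 ± 0.25 in goblet cells (adjusted p = 0.0175) and -0.73 ± 0.14 in transit amplifying cells (adjusted p = 0.00150). Cldn2 and Cldn15 differed in transit amplifying cells, by -0.45 ± 0.05 (adjusted p = 1.61e-06) and -0.25 ± 0.05 (adjusted p = 0.00109).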

How the results depend on the processing

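Of 194 repeats of the main comparisons under another setting 169 stayed within 1.5 times a count or 1 SD of a ratio and 25 moved, and of 656 repeats for single members 604 kept their direction and their side of the threshold, 18 lost a call, 9 gained one, 9 changed sign and 16 moved otherwise. With only genes of at least 10 CPM in 2 libraries, fewer genes and members were tested, and 800 (Hyper against ENR), 528 (Hyper against -VE) and 166 (-VE against ENR) genes and 1, 1 and 1 members were called. With equal weight for each of the 4 classes tested, the genes called were 1307, 1098 and 35, with 3 members for Hyper against ENR and 0 for -VE against ENR. In that setting Cldn23 in Hyper against ENR was 0.24. With all barcodes, -VE against ENR gave 669 genes, and Cldn7 -0.0060. With library sums alone the median log2 fold change of all genes was 0.12 (Hyper against ENR) and 0.15 (Hyper against -VE), against -0.01 and 0.01 with TMM, and Cldn3 relative to ENR was -0.88. For the culture series as a block, members called changed only in enteroendocrine cells (Hyper against ENR, 2) and goblet cells (-VE against ENR, 1), and Cldn2 in Hyper against -VE was -0.067, with the cause not tested.

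When each library was left out in turn, genes called were 3384 to 3806, 2218 to 2977 and 96 to 519 for the 3 comparisons in that order, and members called 5 to 6, 2 to 4 and 0 to 2, with the lowest of the last without -VE-organoids 2. The log2 fold change of Cldn2 in Hyper against -VE ranged from -0.13 to 0.27, that of Cldn6 in -VE against ENR from -0.38 to 0.55 and that of Cldn7 from -0.030 to 0.040. As means over cells, the enterocyte to stem log2 ratio was -0.063 for Cldn7 and 0.89 for Cldn15. In the colon 669 genes were past 2-fold among those with at least 100 UMIs, against 1923. Few UMIs limit Cldn1, Cldn6 and Cldn18, and 2 -VE libraries and single colonic libraries limit the comparisons with them.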

Other observations

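Cldn6 had a higher level in enteroendocrine cells of Hyper-organoids than over all their cells, at 7.16, 2.78 and 4.76 CPM against 0.708, 0.549 and 0.576 CPM. In enteroendocrine cells of ENR-organoids it was at 1.55, 0 and 0 CPM. Those of the 2 -VE libraries had 1.49 to 4.09 CPM, against 0.129 to 0.246 CPM over all -VE cells. Cldn8 had no UMI in the enteroendocrine cells of the 3 ENR libraries, 1 UMI in those of the 2 -VE libraries, and 0.746, 1.39 and 0 CPM in those of Hyper-organoids. These values rest on few UMIs and were not tested.

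Cldn4 UMIs were unevenly spread over cells in ENR-organoids. The 1% of cells with most Cldn4 held 32.8%, 43.5% and 35.8% of its UMIs there. The same share was 25.9% in both -VE libraries and 14.5%, 14.2% and 12.1% in the 3 Hyper libraries. For Cldn7 it was 2.51% to 3.06% in all 8 organoid libraries. A lower mean count raises this share by itself, and that part was not tested.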
